A study of Mus musculus with 7 samples.

Results

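Kinesins and centrosomal proteins are large cytoskeletal proteins, and their mRNAs were examined here in an RNA immunoprecipitation sequencing (RIP-seq) series on Ezh2, the catalytic subunit of Polycomb repressive complex PRC2. The members are the nuclear protein-coding genes of the GENCODE mouse annotation whose symbol is Kif or Cep followed by a number and at most 1 letter. The rule uses names alone and no measured value. It found 72 genes, 38 Kif and 34 Cep, among 21938 nuclear protein-coding genes. Genes of the same machinery under other names, such as the kinesin light chains or pericentrin, are not members and serve below as comparison lists.

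The series holds 7 libraries from mouse embryonic stem (ES) cells kept in medium with LIF. An anti-Ezh2 antibody was used on nuclear lysate of wild-type cells, labelled with the strain 129X(M.castaneusX129), in 5 libraries, and on Ezh2-null cells, whose strain label is M.musculus only, in 1 library. Normal rabbit IgG was used on cells of the 129X(M.castaneusX129) strain in the remaining library. Of the 5, 1 is titled a technical replicate and 2 a biological replicate. Deeper sequencing runs make up 2 of the 5, the run of the biological replicate included. The labels give no promoter, Cre or clone, nor how the null cells were made. The values come from a single table of read sequences and counts that no label ties to a library, and it may hold any number of them. It was therefore treated as 1 pool. No group could be compared with another, and there are no replicates. A level below is thus the RNA content of this table, and nothing below is an enrichment over IgG or over Ezh2-null cells.

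Kinesins are motors that walk along microtubules or take them apart, driven by a motor domain that binds ATP through a P-loop and senses its hydrolysis through the switch II loop. Most pair through a long coiled coil, in which residues at places a and d of a 7-residue repeat (the heptad, lettered a to g) are hydrophobic. Centrosomal proteins build the centriole, the material around it and the base of the cilium, and many are coiled coils over much of their length. ES cells divide rapidly and need both families for the spindle, the centrosome cycle and cytokinesis.

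The table holds 34072479 reads, of which 31529044 were long enough to be searched, and 28.2% of those lay in RNA-sense orientation on a single gene. Of the 10 ES cell markers checked, 9 had at least 50 sense reads, and Nanog had 37 reads. All of the 10 fibroblast markers reached 50, with a summed 58779 reads against 37661 for the ES cell markers, and the labels name no feeder cells. Fn1 with 39715 and Vim with 2050 of the fibroblast marker reads are genes that other cell types also use. L1td1 alone held 29926 of the 37661 ES cell marker reads. What part of the reads of any gene below came from other cells was not tested. In RNA pulled from bulk lysate, fewer cells of a type and less RNA per cell cannot be told apart. Intervals below are exact Poisson for counts and exact Clopper-Pearson for percentages, at the 95% level. They cover counting error only, take each read or position as independent and are too narrow where reads are PCR copies or positions lie side by side.

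The RNA at the strongest sites is shown first, because the later sections return to these letters. Each read was matched without its 6 leading bases, and the base of the transcript that pairs with the 5′ end of the rest is its start position. Reads are the reverse complement of the RNA, so the matched part extends from the start position toward the RNA 5′ end. Each line gives 54 bases of the GENCODE transcript in RNA sense, 5′ to 3′, around the coding start position with most reads. The first 34 bases are the matched part of a 40-base read and end at the start position. The next 6 are the bases left out of matching. The 3 capitals are the bases 7 to 9 downstream of the start position, which lie outside the deposited read, and 11 further bases follow. The lines cover 10 of the 12 genes that lead their families.
Kif21a: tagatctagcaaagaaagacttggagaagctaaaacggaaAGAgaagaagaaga
Kif2c: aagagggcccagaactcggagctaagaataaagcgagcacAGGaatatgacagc
Kif20b: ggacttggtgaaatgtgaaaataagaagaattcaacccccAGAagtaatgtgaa
Kif1b: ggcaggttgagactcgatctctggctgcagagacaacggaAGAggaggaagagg
Kif2a: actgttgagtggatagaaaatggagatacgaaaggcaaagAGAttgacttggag
Cep55: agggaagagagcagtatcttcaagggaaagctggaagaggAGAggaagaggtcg
Cep295: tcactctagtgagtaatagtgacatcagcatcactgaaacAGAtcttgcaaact
Cep290: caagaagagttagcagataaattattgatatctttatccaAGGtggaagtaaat
Cep350: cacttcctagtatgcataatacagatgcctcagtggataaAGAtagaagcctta
Cep162: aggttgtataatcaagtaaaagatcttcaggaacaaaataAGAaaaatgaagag

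In GRCm38 the Kif21a stretch is chr15:90980802-90980855 on the minus strand, in exon 11 of 37, and its start base lies in codon 549. The Kif1b stretch is chr4:149226272-149226325, minus strand, in exon 23 of 49 (codon 727). The Cep55 stretch is chr19:38069879-38069932, plus strand, in exon 7 of 10 (codon 318). These 3 stretches lie in coding exons, and their matched parts are 70.6%, 55.9% and 73.5% A or G. The Cep295 stretch is chr9:15317963-15318016, minus strand, in exon 25 of 28 (codon 2358). The Cep350 stretch is chr1:155862238-155862291, minus strand, in exon 34 of 38 (codon 2613), and the Cep162 stretch chr9:87218555-87218608, minus strand, in exon 17 of 27 (codon 734). The other 4 stretches run across an exon junction. Their start bases are at chromosome 4, 117172293, minus strand, for Kif2c (exon 7 of 20, codon 215), and at chromosome 19, 34972429, plus strand, for Kif20b (exon 29 of 32, codon 1628). For Kif2a the base is at chromosome 13, 106993856, minus strand (exon 2 of 21, codon 51), and for Cep290 at chromosome 10, 100488400, plus strand (exon 2 of 54, codon 32). Of the 10 stretches 8 carry AGA in the capitals, and the 2 others, in Kif2c and Cep290, carry AGG.

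Most kinesin and centrosomal genes reached 50 sense reads. The Kif genes together had 7544 sense reads, 0.138% of the 5477015 sense reads of nuclear coding genes (0.135 to 0.141). The Cep genes had 19251, or 0.351% (0.347 to 0.356), and 12198 of these belonged to Cep55 alone. Without Cep55 the Cep family had 7053 reads, close to the Kif total. Of the 72 members 48, or 66.7%, reached 50 sense reads, where 29.1% of all nuclear coding genes did. By family, 24 of 38 Kif and 24 of 34 Cep genes reached it. A fixed count is easier for long genes to reach. The median coding sequence was 3007.5 bases in members and 1191 in all nuclear coding genes. At least 1 sense read was found in 70 members, against 72.2% of all nuclear coding genes.

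Per length the family medians lay close together. The median level was 0.400 reads per kb of exon and per 1000000 searched reads (RPKM) for Kif genes and 0.490 RPKM for Cep genes, against 0.0856 RPKM over all nuclear coding genes. The middle 50% of Kif genes ran from 0.110 to 0.951 RPKM and that of Cep genes from 0.262 to 0.976. The background median takes in 6097 genes without a sense read, so it is not a median of expressed genes. Members took 0.648% of all coding-gene start positions and 0.549% of the exon length, so that by positions the families lay near their share of length.

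**Figure D1:**
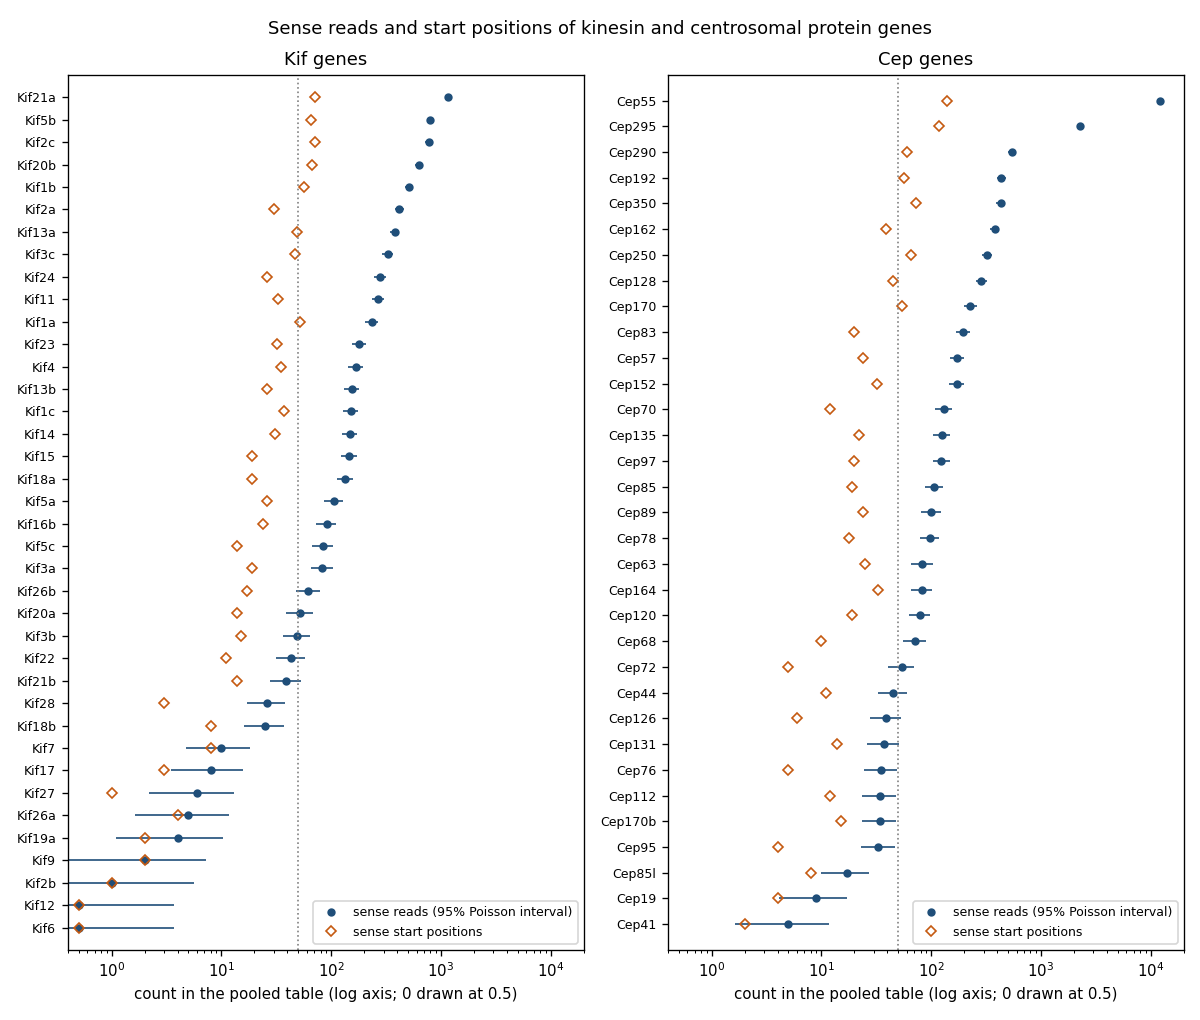
Sense reads (filled circles, with 95% Poisson intervals) and sense start positions (open diamonds) of Kif genes (left) and Cep genes (right) in the pooled table, on a log axis of counts; genes at 0 are drawn at 0.5 and the dotted line marks 50. Kif genes descend from 1155 reads in Kif21a to 0 in Kif6 and Kif12 without a gap, while Cep55 with 12198 and Cep295 with 2278 reads stand apart from the other Cep genes.

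Kinesins that carry cargo were the largest Kif group, with 14 genes, 2994 sense reads and 11 genes at 50 or more. The role groups used here were drawn up after the values had been seen. Kif5b, the heavy chain of conventional kinesin, had 794 sense reads (740 to 851) at 65 start positions, or 3.16 RPKM. It came to 1225 reads when those that matched several genes were counted in each of them. Its paralogs of neurons were at 0.481 RPKM (Kif5a, 106 reads) and 0.373 RPKM (Kif5c, 84 reads). Kif1b, a kinesin-3 motor of mitochondria and synaptic vesicle precursors, had 512 reads at 56 positions, and 230 of these lay in the 3′ untranslated region of its canonical transcript. Counting reads that matched several genes equally well in each of them raised Kif1b to 85908, so its single-gene count leaves out most of what its transcripts can match. Its relatives followed with 378 reads in Kif13a, 233 in Kif1a, 154 in Kif13b and 150 in Kif1c. Heterotrimeric kinesin-2 is built on Kif3a paired with Kif3b or Kif3c. By single-gene reads Kif3c had 1.396 RPKM (326 reads), the highest level of the 3. Kif3a had 0.734 RPKM (83 reads) and Kif3b 0.276 RPKM (49 reads). With reads that matched several genes counted in each of them, Kif3a rose to 200, Kif3c to 351 and Kif3b stayed at 49. Kif3a has 3.586 kb of exon and Kif3c 7.406 kb, so their order per length is uncertain. Kif17, the homodimeric kinesin-2, had 8 single-gene reads.

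Kif21a led all kinesins by reads. It is a kinesin-4 motor that limits microtubule growth, lies at 90933276 to 91049948 on the minus strand of chromosome 15 (GRCm38) and had 1155 sense reads (1089 to 1224) at 71 start positions, or 5.66 RPKM. Its 2 highest codons, 549 and 582, held 226 and 82 of these reads. Within the same family Kif4, a chromosome-bound motor of the anaphase spindle, had 167 reads and Kif21b had 39. Kif7 and Kif27, the kinesin-4 relatives tied to Hedgehog signalling and motile cilia, had 10 and 6. Kif21a thus held most of the 1377 reads of its 5-gene family.

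The mitotic kinesins had 1629 sense reads over 9 genes, 7 of them at 50 or more. Kif20b, a motor of late cytokinesis, led with 634 reads (586 to 685) at 67 positions. Kif11 (Eg5), which slides spindle microtubules apart, had 269 reads at 33 positions. Kif23, the motor subunit of centralspindlin, had 179 at 32. These levels were spread widely, since Kif14 and Kif15 had 147 and 146 reads, Kif18a 134, Kif20a 52, Kif22 43 and Kif18b 25. With reads that matched several genes counted in each of them, Kif11 and Kif23 came to 1412 and 1067. Kif18a and Kif15 came to 700 and 589, so the single-gene counts of these genes are uncertain.

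Among the kinesin-13 genes, whose products shorten microtubules instead of walking on them, Kif2c stood near Kif21a. Kif2c, the centromeric depolymerase also called MCAK, had 773 sense reads (719 to 829) at 71 positions and 5.62 RPKM. Kif2a had 418 at 30 positions. Kif24, which removes primary cilia at the mother centriole, had 279, of which 74, or 26.5%, started at 1 base. That was the highest such share among members with at least 200 reads. Kif2b had 1 read. The 6 remaining kinesins were low, at 0 to 62 reads, with Kif26b the highest and Kif6 and Kif12 without a sense read. A count of 0 at this depth still allows for as many as 3 reads.

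Genes of centriole assembly and of the surrounding matrix had 3653 sense reads over 11 genes, of which 9 reached 50. Cep295, which turns a new centriole into a working centrosome, had 2278 reads (2185 to 2374) at 118 positions. Cep192, which gathers the pericentriolar matrix and the kinase Plk4, had 434 reads at 57 positions. Of its partners in centriole duplication, Cep152 had 171 reads, Cep135, a protein of the centriole cartwheel and wall, 125, and Cep63 83. Cep57 had 172, Cep97 124 and Cep85 107. With reads that matched several genes counted in each of them, these 3 came to 490, 997 and 967, and Cep295 came to 4654.

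The reads of Cep295 lay mostly outside its protein-coding transcript. Of its 2278 reads 1732, or 76.0%, started at 74 positions that are not on the canonical transcript, here the one with the longest complete coding sequence. Of these 1692 reads at 68 positions lay on a single annotated transcript with a retained intron, between bases 15317627 and 15322474 of chromosome 9. The gene's highest position, 427 reads at base 15319877, falls in that stretch. The annotated genes Gm48141 and Gm48142 lie within it on the other strand. The high count of Cep295 is thus for the most part not a count of spliced coding mRNA, and the coding analyses below rest on 509 of its reads at 41 positions.

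The linker and appendage genes each had at least 50 reads, and the ciliary genes ranged widely. Cep250 (C-Nap1), the main fibre protein that ties the centrioles together, had 323 sense reads at 65 positions, and Cep68, its partner in the linker, had 71 at 10. All 5 appendage genes reached 50 reads, from 82 in Cep164 to 286 in Cep128. These proteins dock the mother centriole to the membrane or anchor microtubules. With reads that matched several genes counted in each of them, the appendage gene Cep89 rose from 100 to 18136. Cep170 rose from 228 to 2913 and Cep128 to 690. The single-gene range of this group is therefore uncertain. Among the 8 genes of the cilium, Cep290, a bridge of the transition zone, had 547 reads (502 to 595) at 60 positions, and Cep162 378 at 39. Cep290 came to 1007 reads when those that matched several genes were counted in each of them. Cep78 had 97, Cep126 39, Cep131 37, Cep19 9 and Cep41 5. Cep350, a large protein that anchors microtubules at the centrosome, had 430 reads at 73 positions, the largest position count of the Cep genes after Cep55 and Cep295.

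Cep55, at 38055011 to 38074423 on the plus strand of chromosome 19, had more reads than any other member. Its product sits in the midbody, the last bridge between dividing cells, where it recruits the machinery of abscission. It had 12198 sense reads (11983 to 12416) at 139 positions, 133 RPKM, and was number 53 of the 21938 coding genes by reads. It held 63.4% of all Cep reads. The next members in that ranking were Cep295 at 280, Kif21a at 580, Kif5b at 816 and Kif2c at 841.

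The reads of Cep55 came from a short stretch of its coding sequence. Codons 301 to 320 of 462 held 9943 reads at 31 positions, or 81.9% of its 12140 coding reads. The start base shown above, in codon 318, had 2435 reads, 19.96% of the gene total. The next positions by reads were in codons 320 and 316, with 1288 and 1144. Codons 121 to 200 had no start position. By start positions the gene was less extreme, at 139 against 118 in Cep295 and 73 in Cep350.

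Members differed in how many positions carried their reads. In none of the 48 members with 50 or more sense reads did a single position hold over 50% of the reads, where 7.19% of such nuclear coding genes had one. In Kif2c 11 positions, in Kif20b 10 and in Kif21a 11 held the upper 50% of reads, while 5 did in Cep55, 3 in Kif24 and 2 in Kif15.

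**Figure D2:**
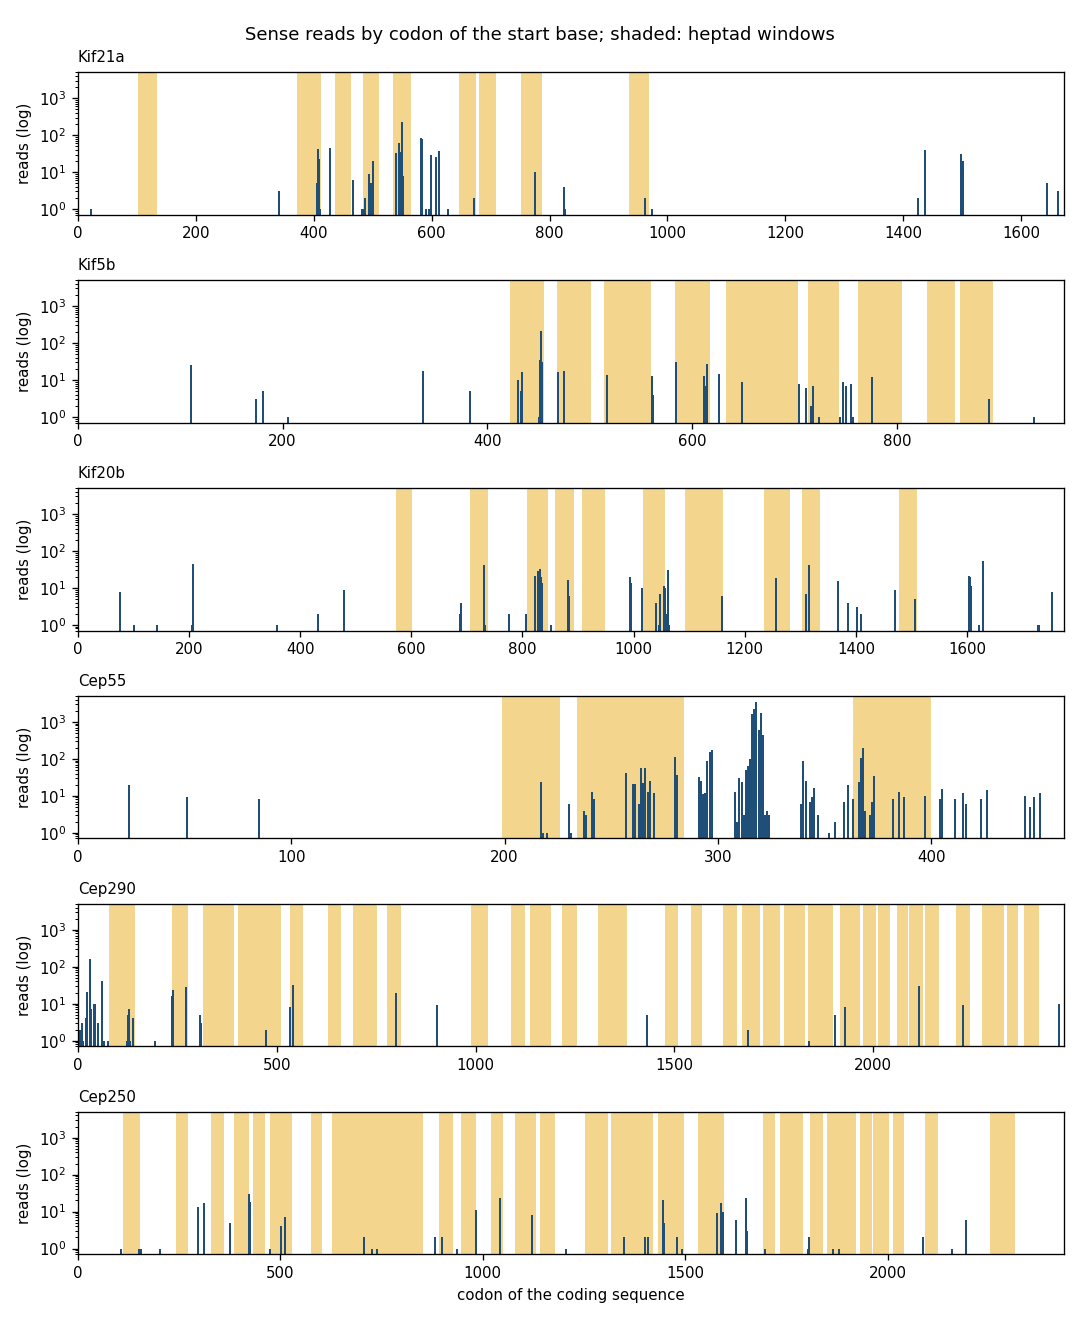
Sense reads (log axis) by codon of the start base along the coding sequence of Kif21a, Kif5b, Kif20b, Cep55, Cep290 and Cep250, with heptad windows shaded. In Kif21a and Kif5b the tallest lines fall inside shaded stretches, in Cep55 the tallest lie at codons 301 to 320 between shaded stretches, and in Cep290 they lie near the start of the coding sequence.

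The start positions of the members lay mostly in coding sequence. On the canonical transcripts, 89.98% of 1767 start positions were in coding sequence, which made up 69.0% of transcript length. The 3′ untranslated regions took 8.55% of positions and 26.9% of length, and the 5′ regions 1.47% against 4.17%. Over all nuclear coding genes 73.1% of positions lay in coding sequence, which made up 52.4% of their length. The excess in coding sequence was therefore shared with other genes.

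Coiled-coil coding parts were approximated from the translated coding sequence. A heptad window is a run of 28 residues without proline in which, in the best register, at least 6 of the 8 a and d places are L, I, V, M or A, and at least 12 residues are D, E, K, R or Q. It is a rough stand-in for a coiled coil and not a structure prediction. These windows made up 14.6% of the members' coding length. They held 336 of 1590 coding start positions, or 21.1% (19.1 to 23.2). If each gene's positions had fallen evenly along its own coding sequence, the share would have been 17.3%, below the lower bound of the interval. Pooled over genes, the density was 9.09 positions per kb inside the windows and 5.78 per kb outside.

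Single genes weighed on this difference. Without Cep55 the share over both families was 19.9% (17.9 to 22.0), with 16.6% for an even spread. In the Kif family 16.7% of positions (14.1 to 19.5) were in heptad windows, with 12.02% for an even spread, and without Kif21a, Kif5b and Kif20b, left out after their values were seen, which lowers the share by construction, it was 7.44% with 8.39% for an even spread. In the Cep family it was 25.4% (22.4 to 28.5) with 22.4% for an even spread, and 23.6% with 21.9% without Cep55. Of 26 members with at least 20 coding positions and a heptad window, 13 had a larger share of positions than of length in the windows, where 48.7% of all such nuclear coding genes did. In 9 of the 26 the interval lay above the share of length, where 23.1% of all such genes did. By the count of genes alone the members were thus near the background. Counted by reads, the windows held 15.3% of the members' coding reads, and with each distinct sequence counted once 14.4%. The pooled coding length gave 14.6%, which does not weight genes by their reads. An even spread was not computed for reads or sequences, so no excess or lack can be read from these shares. Set against pooled length only, the families went opposite ways by reads. The share was 24.3% in Kif genes against 10.6% of length. It was 11.7% in Cep genes, most of whose reads are of Cep55, against 19.1%. With at least 7 of the 8 a and d places hydrophobic, the share of positions was 3.77% (2.89 to 4.83). The interval takes in the 3.16% of pooled length, so no excess was shown under that rule. An even spread was not computed for it.

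In Kif21a, 50.8% of 63 coding positions (37.9 to 63.6) lay in windows that make up 17.7% of the coding sequence. The site shown above is inside such a window. In Kif5b 27 of 45 positions (44.3 to 74.3%) lay in the stalk windows that make up 37.1%. Kif20b had 39.4% of 66 positions (27.6 to 52.2) against 22.8% of length, and Cep162 55.9% of 34 (37.9 to 72.8) against 24.6%. Cep55, Cep152, Kif2a and Kif23 were also among the 9. In 2 genes the interval lay below the share of length. Kif2c had 0 of 69 positions (at most 5.21%) in windows that make up 9.97%, and Cep290 had 22 of 55 (27.02 to 54.09%) against 56.5%.

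In Cep55, reads and positions gave opposite answers. Its windows held 34.8% of its 132 coding positions (26.8 to 43.6) and make up 25.3% of its length, but they held 7.42% of its reads. Codons 301 to 320, which held most of the reads, have no residue in a window. Cep250, which is coiled coil nearly throughout, had 31 of 62 positions (37.02 to 62.98%) in windows that make up 55.8% of its length, so no difference could be shown there.

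**Figure D3:**
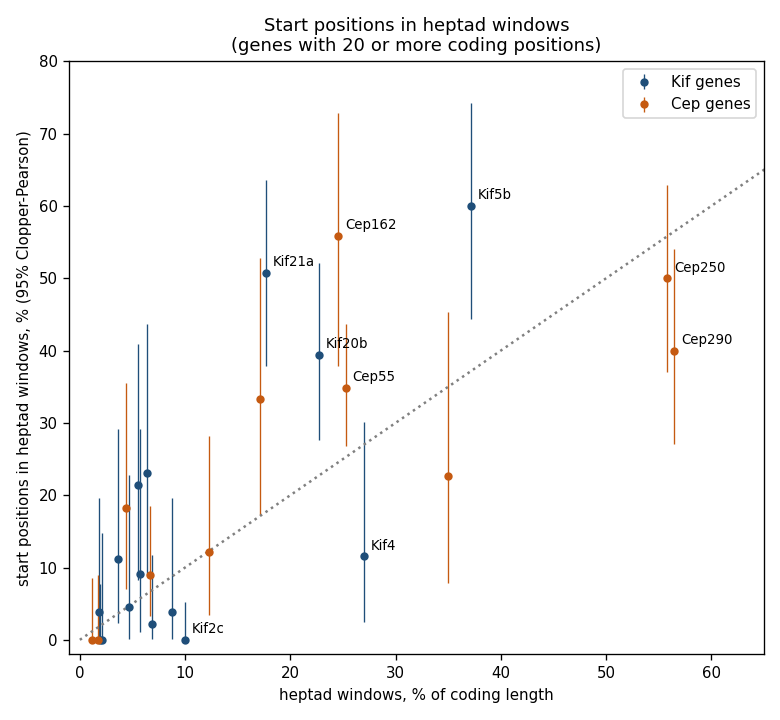
Share of coding start positions in heptad windows (vertical, with 95% Clopper-Pearson intervals) against the share of coding length in such windows (horizontal) for members with at least 20 coding positions and any window; the dotted line marks equal shares. Kif21a, Kif5b, Kif20b, Cep55 and Cep162 lie above the line with their intervals, Kif2c and Cep290 below it, and Cep250 has an interval that crosses it.

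In 3 of the 4 comparison lists the interval of the share of positions in windows also lay above an even spread. Among 22 other coiled-coil genes of the cytoskeleton, chromosomes, Golgi and other structures, led by the non-muscle myosin gene Myh9 with 50334 sense reads, the cohesin gene Smc1a with 21880 and the Golgi tether gene Golgb1 with 10248, the windows held 49.2% of positions (47.6 to 50.8) with 35.4% for an even spread. There 18 of 20 testable genes had a larger share of positions than of length. For dynein and dynactin the share was 26.8% (23.3 to 30.6) with 14.2%, and for centriole genes not named Cep 23.3% (20.8 to 25.9) with 19.5%. Other kinesin genes and partners had 13.5% (9.95 to 17.6) with 12.04%, so no excess was shown there. Over all nuclear coding genes the windows held 5.34% of positions and 2.53% of length. A heptad excess was therefore not particular to Kif and Cep genes.

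A core part of the motor domain showed the opposite sign, and the rest of the domain was not counted. This core was defined from the P-loop motif to the switch II motif, which a search found in 33 of the 38 Kif proteins. It was not found in Kif2a, Kif2b, Kif2c, Kif26a and Kif26b, whose letters differ from the motifs searched. The core took 14.1% of the coding length of the 33 genes and 60 of their 664 coding positions, or 9.04% (6.97 to 11.5), with 13.9% for an even spread. In 8 of the 14 such genes with at least 20 coding positions no position fell in the core. Kif21a, Kif3c, Kif13a, Kif24 and Kif4 were among them. Kif1a, by contrast, had 10 of 47 positions in a core that takes 8.76% of its length, and Kif11 had 8 of 26 in 15.8%.

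Along the coding sequence of Kif genes the positions were fewest at the end. In 5 equal parts from the start codon, they fell 18.9%, 27.3%, 26.1%, 18.9% and 8.86% of 779. The last part of Cep genes was low too, at 11.6% of 811, against 17.9% in other nuclear coding genes. By reads the Cep genes had 73.6% in the fourth part, where the Cep55 stretch lies.

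Purine content at the start positions was only slightly above that of the genes themselves. The 34 matched bases at the members' coding positions were on average 58.8% A or G. The coding sequence of the members is 56.0% A or G, and an even spread in each gene gives 56.9%. Other nuclear coding genes had 57.8% at their positions and 51.9% in their coding sequence, a larger step from a lower base. Weighted by reads, the members had 65.3%. Of 28 members with at least 20 coding positions, 19 had more purine at positions than in their coding sequence, where 74.9% of such nuclear coding genes did.

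The density of positions rose with purine content in both sets. In members it was 3.33 positions per kb (2.00 to 5.19) where the 34 bases held under 35% purine, 6.36 at 55 to 65% and 10.2 (8.27 to 12.5) at 75% and over. In other nuclear coding genes it went from 2.63 to 27.3 per kb over the same range, so that the most purine-rich stretches of Kif and Cep genes were less densely covered than those of other genes. Heptad windows are themselves purine-rich, at 62.4% against 54.9% outside. Taken at 60% purine, the density inside heptad windows was 9.03 per kb above and 9.18 below, and outside them 7.46 above and 5.03 below. The pooled values of the families ran opposite ways inside the windows, and single genes weighed on them. Cep55 held 46 of the 206 window positions of Cep genes. Of the 130 window positions of Kif genes, 45 lay outside Kif21a, Kif5b and Kif20b. The split by purine was not made without these genes. In Kif genes the density inside windows was 11.7 per kb (9.45 to 14.3) above 60% and 5.77 (4.06 to 7.95) below. In Cep genes it was 7.54 (6.19 to 9.11) above and 11.8 (9.61 to 14.4) below. Under 60% purine, the intervals inside and outside windows overlapped in Kif genes, where the density outside was 4.56 (4.11 to 5.03), and did not in Cep genes, where it was 5.66 (5.09 to 6.27).

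The encoded residues differed from those of the whole proteins, only in part in the direction of purine content. Glutamate codons were 1.24 times and lysine codons 1.22 times as frequent over the matched parts as in the members' proteins, while glycine was at 0.686 and proline at 0.722. Methionine was at 1.25. In other nuclear coding genes the ratios were 1.56 for glutamate, 1.48 for lysine, 0.983 for glycine, 0.826 for proline and 0.958 for methionine. The codons of glutamate and lysine consist of A and G only. Those of glycine, low in members, are purine-rich too.

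The sharpest sequence feature lay just outside the reads. In members the purine share was 58.8% in the 37 bases before the matched part, 58.8% within it and 62.0% in the 6 bases left out, and it was 72.8% in the 10 bases that follow. It fell back to 62.4% in the next 14. Other nuclear coding genes had 56.8%, 57.8%, 60.3%, 69.2% and 60.5% in these stretches. At the base 7 downstream of the start position 63.1% of members' positions had A, at the base 8 downstream 54.6% had G, and at the base 9 downstream 48.2% had A.

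**Figure D4:**
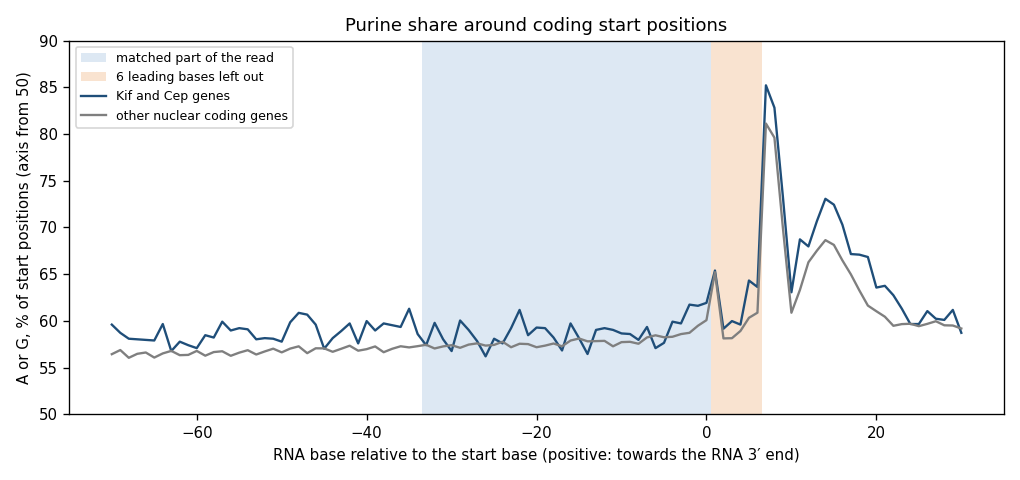
Percent A or G (axis from 50) at each RNA base around coding start positions, from 70 bases before to 30 after, for Kif and Cep genes and for other nuclear coding genes; the matched part and the 6 bases left out are shaded. Both lines peak at the base 7 downstream of the start position, at 85.2% in Kif and Cep genes, just past the deposited read.

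The letters AGA, the most frequent ones at these 3 bases, were chosen after this profile was seen, so their density describes it and is no independent result. Read on the RNA strand only, they stand at bases 7 to 9 downstream for 3.58% of the coding bases of members and for 432 of the 1590 start positions, or 27.2%. The density was 47.5 positions per kb (43.2 to 52.2) where all 3 letters matched, 10.5 where 2 did, 3.95 where 1 did and 2.90 (2.57 to 3.25) where none did. Other nuclear coding genes gave 47.1 per kb at 3 matches and 2.64 at none, with AGA at 2.59% of their coding bases and 22.2% of their positions. The members' intervals take in the values of the other genes at 3 matches and at none. In the 12 leading genes, 21 of the 36 sites that are among the 3 highest of a gene had all 3 letters. What places reads next to these letters was not tested.

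**Figure D5:**
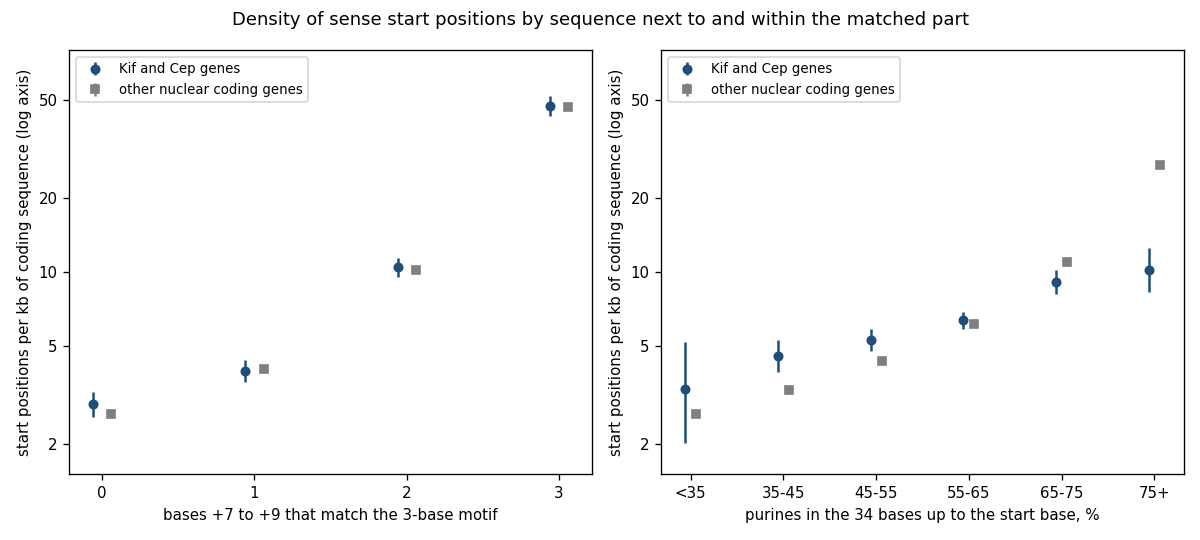
Start positions per kb of coding sequence (log axis, 95% Poisson intervals) by the number of bases 7 to 9 downstream of the position that match AGA (left) and by purine percent of the 34 bases up to it (right), for Kif and Cep genes (circles) and other nuclear coding genes (squares). On the left both sets rise together to 47.5 and 47.1 per kb, and on the right the sets part at 75% and over, at 10.2 and 27.3 per kb.

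The heptad windows were then compared with and without these letters. Where AGA stood at bases 7 to 9 downstream, the density was 45.4 per kb (36.1 to 56.4) inside heptad windows and 48.1 (43.2 to 53.4) outside, with overlapping intervals. Where it did not, the density was 7.23 per kb (6.36 to 8.17) inside and 4.31 (4.04 to 4.60) outside. Without Cep55 these last values were 6.12 (5.32 to 6.996) and 3.97 (3.70 to 4.25). All of these densities pool the genes. Over all coding positions an even spread within each gene put 17.3% in windows, where pooled length gave 14.6%. Pooled densities thus also hold differences between genes, and the split by letters was not made within genes.

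Most member RNA was of the sense strand. The antisense share was 9.64% of reads (9.30 to 9.98), against 12.5% over all nuclear coding genes. It was 17.4% (16.7 to 18.2) in Kif and 6.16% (5.84 to 6.499) in Cep genes, and Cep55, with 43 antisense reads or 0.351%, weighed on the Cep value. Without Cep55 the share of both families was 16.2%. By start positions, which give Cep55 no such weight, it was 21.1% in Kif, 18.3% in Cep and 23.0% over all nuclear coding genes.

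The antisense share was 5.02% in Kif21a, 5.25% in Kif5b, 3.52% in Cep295, 12.6% in Cep290, 3.93% in Kif11 and 1.19% in Kif3a. It was higher in Kif20b at 26.4%, Kif24 at 30.1%, Kif2c at 22.1% and Cep63 at 40.3%. The interval lay above 50% in 2 of 52 members with at least 50 reads of either strand, where it did in 12.4% of such nuclear coding genes. Kif18b, a motor that shortens microtubules at their growing ends, had 88 antisense and 25 sense reads, or 77.9% antisense (69.1 to 85.1). By start positions its share was 55.6% (30.8 to 78.5), which takes in 50%. The gene Gm26668 overlaps it on the other strand. Reads that matched transcripts of Gm26668 equally well in sense were counted for that gene, so none of the 88 has such a match. Cep68 had 146 antisense and 71 sense reads, or 67.3% (60.6 to 73.5). In Cep68, 115 and 10 of the antisense reads started at a pair of adjacent bases, and every one of these was shorter than 30 bases. In reads of at least 30 bases its share was 22.8%.

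Read length divided some members. The table holds reads of 36 and of 40 bases, and the labels do not say which library had which length. With 0.5 read added to each count, of 21 members with at least 200 such reads, 2 had an over 2-fold higher share among 36-base reads, where 14.8% of such nuclear coding genes did, and 8 among 40-base reads, where 17.8% did. Kif1a and Kif3c were the 2, with 56 reads of 36 bases and 176 of 40, and with 93 and 233. The 8 were Kif5b, Kif21a, Kif20b, Kif24, Kif1b, Cep290, Cep192 and Cep295. Kif11, with 13 and 214 reads, lay just short of that threshold and would pass it without the added 0.5. Kif5b had 32 reads of 36 bases and 749 of 40, and Cep295 had 76 and 2195. Over all nuclear coding genes 11.2% of the reads of these lengths were of 36 bases, and in Kif genes 10.1%.

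Neighbouring machinery was also present. Of the 11 other kinesin genes and partners 6 reached 50 sense reads, led by the light chain gene Klc1 with 3695 reads, the kinetochore motor gene Cenpe with 448 and the kinesin-2 adaptor gene Kifap3 with 174. Of 34 centriole and pericentriolar genes not named Cep 27 did, led by Ofd1, a centriolar satellite gene, with 4828, the spindle gene Tacc3 with 3932 and the appendage gene Odf2 with 2084. Of 18 dynein and dynactin genes 12 did. These motors walk in the direction opposite to most kinesins, and Dync1h1, the heavy chain gene, had 1438 reads, Dctn1 1399 and Pafah1b1 605. At 28.8 RPKM the light chain gene Klc1 stood above its heavy chain partner Kif5b at 3.16 RPKM, on the scale per length.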

How the data were processed

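Per the labels' protocols, the RIP-seq libraries come from mouse ES cell nuclei and their cDNA was made with template switching. The deposited table gives whole-number read counts per distinct sequence, not scaled to depth, per its values. The submitters' processing notes name mm9, the table holds no coordinates, and the aligner and filters are not given in the sources used here. The table has 1 count column and no per-sample column, so no test was possible, and the planned values are descriptions.

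Reads of at least 26 bases lost their 6 leading bases, which mismatch often, and were matched to GENCODE M21 transcripts (GRCm38) with bwa 0.7.19, up to 2 mismatches, no gaps and 1000 placements. A read counted for a gene where all best placements lay on it in 1 orientation, antisense placements on overlapping genes being allowed for sense reads. On 10000 simulated reads of members 98.83% returned to their gene and strand, 0.52% matched several genes and 0.03% went to a wrong one. For 10000 reads of other nuclear coding genes, 88.62% returned and 10.68% matched several genes. These reads were drawn at random from 1 coding transcript per gene. In the real reads, counting all placements raised the members from 26795 to 148600 sense reads, an ambiguity that the simulation does not reproduce. Intervals are from scipy 1.17.1. Introns outside annotated transcripts were not searched. Coding analyses used 1 transcript per gene, that with the longest complete coding sequence.

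The members, lists and tests were chosen with earlier results of these data known. Named genes are the 6 Kif and 6 Cep genes with most sense reads, the 4 of each with most positions, those with antisense intervals above 50%, the member with the highest share at 1 position, Kif11, Kif5b, Kif3a, Kif23, Kif1b, Cep290, Cep192, Cep152, Cep63 and Cep135, and the 3 highest of each list. Other members are named in passing for completeness, and the values of 1 member are not reported here, though sums include it. Alternatives counted sequences or positions once, took 1 read length, no mismatch, longer reads, stricter uniqueness or all placements, left out each gene's highest position, or changed the heptad rule and the purine window.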

Additional observations from a re-analysis of the deposited data

How the results depend on the processing

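All values rest on 1 table, treated as a pool, and no replicate could be left out. No paired analysis was possible because the count column carries no sample or replicate number. Few positions hold many reads, and the way of counting moved the family totals. As a share of nuclear coding sense reads, Kif genes were at 0.186% with each distinct sequence counted once, 0.308% by start positions, 0.124% in 36-base reads, 0.133% without mismatches, 0.277% with all placements and 0.146% without each gene's highest position. Cep genes were at 0.382%, 0.339%, 0.315%, 0.334%, 0.144% and 0.361% under the same settings in that order, at 0.359% in 40-base reads and at 0.367% with no other gene within 1 further mismatch. With all placements Kif1b alone had 85908 reads. The antisense share of both families was 12.3% by distinct sequences, 19.6% by positions, 15.8% in 36-base and 7.84% in 40-base reads. It was 8.51% without mismatches, 9.0001% in reads of at least 30 bases, 8.78% with no other gene within 1 further mismatch, 2.00% with all placements, 6.85% without the highest position of each gene and strand, and 9.07% in members without a gene on the other strand.

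The heptad share of positions was 14.4% by distinct sequences, 15.3% by reads and 17.3% in 36-base reads, whose interval (14.4 to 20.6) takes in the even spread of all positions. It was 3.77% with at least 7 of the 8 a and d places hydrophobic, where pooled length gave 3.16%, inside the interval. With alanine not counted it was 11.8%, where pooled length gave 8.37%. An even spread within each gene was not computed for these settings. The purine share was 64.1% by distinct sequences, 65.3% by reads, 60.4% with all placements and 60.9% in a 100-base window. Leaving out Cep55, chosen after the data were seen, gave 0.129% for Cep reads and 16.2% antisense. The antisense share of Cep68 changed side of 50%, to 22.4% in 40-base reads and 22.8% in reads of at least 30 bases, where its short antisense reads at adjacent bases are left out by construction. That of Kif18b was 55.6% by positions, with an interval that takes in 50%. Of the values over whole families, the settings moved 35 beyond the interval of the main setting and left 18 inside it. For single genes the settings moved 95 values beyond their interval, took 12 antisense shares to an interval that includes 50% and left 265 as they were.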
